A study of Mus musculus with 14 samples.

Results

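Levels of 10 chaperone genes were examined in RNA from cells sorted out of the synovium, the lining tissue of the joint, of mouse knees. The genes are Cryab, Hspb1, Hspb8, Bag3, Hspa1a, Hspa1b, Hspa8, Dnajb1, Hsph1 and Hsp90aa1. They were found by symbol among the 47729 genes of the count table, and all 10 were present and passed the filter on low counts, which kept 15015 genes. The members were selected on an earlier look at these data, in which Cryab led the genes higher in CD200+ cells of arthritic mice than of non-immunized mice. Their values in that comparison are therefore given as a description without a test. The other comparisons had been seen as well, so the adjusted p-values given for them are not independent of the choice of genes.

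The 14 libraries came from C57BL6 mice aged 16 weeks. In antigen-induced arthritis, mice were immunized with mBSA (bovine serum albumin carrying methyl groups), given in complete Freund's adjuvant (CFA), and later received mBSA into the knee. Non-immunized mice received phosphate buffered saline each time. Joints were harvested 10 days after that injection and digested with collagenase, and cells lacking TER119, CD31 and CD45 but carrying CD51 were sorted. Libraries 1 to 4 hold CD200+CD105- cells of non-immunized mice, libraries 5 to 9 hold CD200+CD105- cells of arthritic mice, and libraries 10 to 14 hold CD200-CD105+ cells of arthritic mice. They are called non-immunized CD200+, arthritic CD200+ and arthritic CD105+ libraries here. No CD105+ libraries of non-immunized animals enter the comparisons, so phenotype and arthritis cannot be told apart where CD105+ libraries are set against non-immunized ones. Each library is a pool of 200 to 500 cells. The labels do not say that libraries came from separate animals, so p-values measure only the spread between libraries, which may be technical.

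Chaperones keep other proteins from misfolding and clumping. Small heat shock proteins hold unfolded proteins without using ATP, the Hsp70 proteins refold them in ATP-driven cycles started by J-domain partners and ended by exchange factors, and Hsp90 finishes the folding of kinases and hormone receptors. Some family members are made at all times, while others are switched on by heat shock factor 1, which binds inverted repeats of the unit GAA in promoters.

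Promoters were available for 7 of the 10 genes in a RefSeq table (GRCm38.p6). Pairs of inverted units, written GAANNTTC or TTCNNGAA and each identical on both strands, were searched in the 250 bases before each start. At least 1 pair was present for 4 of these genes, Hspb1, Hspa1a, Hspa1b and Hsph1. Of all 32851 promoters in the table, 12.84% held such a pair. That share is per promoter, while members were counted per gene, and Hspa1a and Hspa1b have nearly the same promoter. A run of 3 alternating units was found for 0 of the members and for 0.47% of all promoters. A match is a description of the letters and does not show that the factor bound. A missing match does not show that the factor cannot bind, because units departing from these letters were not searched. The 4 stretches are shown because they carry the pairs, which are in capitals, and because those of the paired Hsp70 genes differ at only 3 of 250 bases. The stretches lie at chr5:135887669-135887918 (plus strand) for Hspb1, chr17:34972157-34972406 (minus strand) for Hspa1a, chr17:34959239-34959488 (minus strand) for Hspa1b and chr5:149636337-149636586 (minus strand) for the first of the 2 starts of Hsph1.
Hspb1: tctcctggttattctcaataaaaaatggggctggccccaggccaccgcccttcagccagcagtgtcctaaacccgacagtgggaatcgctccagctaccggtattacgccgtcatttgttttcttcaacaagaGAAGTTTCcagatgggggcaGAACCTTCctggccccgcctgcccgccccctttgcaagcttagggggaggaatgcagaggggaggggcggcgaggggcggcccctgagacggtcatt
Hspa1a: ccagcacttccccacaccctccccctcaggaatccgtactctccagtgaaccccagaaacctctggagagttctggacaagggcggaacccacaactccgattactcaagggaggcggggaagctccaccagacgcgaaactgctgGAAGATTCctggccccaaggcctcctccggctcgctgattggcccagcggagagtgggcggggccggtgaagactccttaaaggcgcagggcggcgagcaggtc
Hspa1b: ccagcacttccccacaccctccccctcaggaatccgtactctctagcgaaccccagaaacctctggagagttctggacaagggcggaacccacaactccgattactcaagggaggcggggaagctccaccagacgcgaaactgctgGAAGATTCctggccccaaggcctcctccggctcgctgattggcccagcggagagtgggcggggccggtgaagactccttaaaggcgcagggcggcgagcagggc
Hsph1: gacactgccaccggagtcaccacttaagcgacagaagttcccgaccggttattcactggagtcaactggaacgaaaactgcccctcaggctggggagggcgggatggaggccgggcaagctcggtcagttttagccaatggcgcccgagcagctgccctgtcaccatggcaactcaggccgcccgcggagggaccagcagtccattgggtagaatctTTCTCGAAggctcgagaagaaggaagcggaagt
The pairs of Hspb1 began 97 and 117 bases before its start, and the pair of Hspa1a and of Hspa1b began 104 bases before the start. The pair of Hsph1 began 33 bases before the first start and 54 bases before the other. No such pair was in the windows of Hspb8, Bag3 or Dnajb1. Of the 4 genes with a pair, Hspb1, Hspa1a and Hspa1b were below every CD200+ library in CD105+ libraries and Hsph1 overlapped between groups. Of the 3 without, the same held for Bag3 and Dnajb1, and Hspb8 overlapped.

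Total counts were 12177437 to 40331071 per library, and 20.3% to 92.0% of these were added spike-in RNA. In 3 libraries (2, 5 and 6) the spike-ins took over 80%, and each main count was repeated without them. Levels are given in CPM, gene counts per 1000000 after TMM scaling. In 1 library, 3 counts equal 0.170 to 0.910 CPM. The Cd200 transcript followed the sort, at 590 ± 177 CPM (SD, n = 4), 418 ± 98.4 CPM (n = 5) and 2.29 ± 5.12 CPM (n = 5). Eng, which encodes CD105, did not separate the groups, at 0.315 to 12.2, 0 to 1.35 and 0 to 11.1 CPM. The arthritic CD105+ libraries also held red cell RNA, with summed erythroid markers at 30793 to 255910 CPM, all 14 markers present, and haemoglobin at 2.71% to 18.3% of gene counts, although TER119+ cells had been gated out.

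**Figure D1:**
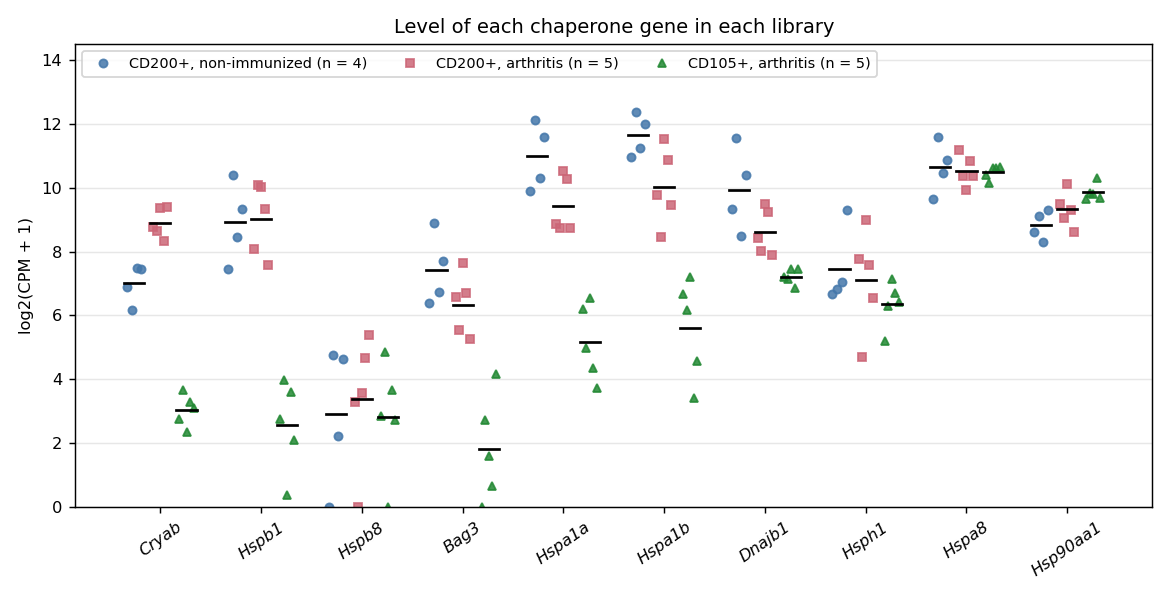
Level of each of the 10 genes in each library as log2(CPM + 1), with a point per library and a bar at the group mean. Cryab, Hspb1, Bag3, Hspa1a and Hspa1b lie lower in every arthritic CD105+ library than in any CD200+ library, while the points of Hspa8 overlap in all 3 groups.

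Several members, though not all, were lower in CD105+ libraries. Against arthritic CD200+ libraries, 5 of the 10 genes fell and 0 rose: Cryab, Hspb1, Bag3, Hspa1a and Hspa1b. Across all genes tested, 6.48% were called lower and 4.79% higher. The groups did not overlap, with CD105+ libraries lower, for these 5 genes and Dnajb1, which was the case for 6.33% of all genes. Against non-immunized CD200+ libraries, 6 of the 10 fell, the same 5 and Dnajb1, and 0 rose, where 7.63% of all genes were called lower and 5.57% higher. Separation with CD105+ libraries lower held for the same 6 genes, and for 11.5% of all genes. Hsp90aa1 separated the other way, with CD105+ libraries higher, and the share of all genes that did so was not counted. Both comparisons use the same CD105+ libraries. Hspa1a and Hspa1b share reads and are not separate results, though both enter these counts and the medians of the members. The median log2 change of the 10 genes was -2.84 and -3.66, beside -0.05 and -0.24 over all genes tested. Fewer cells of a type that makes a transcript and less of it per cell cannot be told apart in such pools.

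The number of calls differed between scalings. With library sizes taken from the spike-ins, the median of all genes moved to 1.23 in both comparisons with CD105+ libraries. The split of all calls then went from 719 higher and 973 lower to 412 and 158 against arthritic CD200+ libraries. Against non-immunized libraries it went from 836 higher and 1146 lower to 163 and 109, and to 669 and 1430 with RLE factors. Of the members, 3 stayed lower at the threshold against arthritic CD200+ libraries (Cryab, Hspb1 and Hspa1a) and 2 against non-immunized ones (Hspa1a and Hspa1b). Without libraries 2, 5 and 6, an alternative chosen after seeing the data, 6 members were lower in each comparison, where 7.32% of all genes were called lower against arthritic CD200+ libraries and 10.1% against non-immunized ones.

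Cryab encodes alphaB-crystallin, a small heat shock protein abundant in lens and muscle. It was at 117, 70.5, 180 and 175 CPM in libraries 1 to 4, at 439, 395, 660.4, 318 and 677 CPM in libraries 5 to 9, and at 5.77, 11.6, 4.10, 8.75 and 7.50 CPM in libraries 10 to 14. The 3 groups did not overlap: the lowest arthritic CD200+ library (8) lay above the highest non-immunized one (3), and every CD105+ library lay below both. Group means were 136 ± 51.9 CPM (SD, n = 4), 498 ± 162 CPM (n = 5) and 7.55 ± 2.88 CPM (n = 5).

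In arthritic against non-immunized CD200+ cells the log2 change of Cryab was 1.87 (SE 0.38), a ratio of 3.67, and it was 1.65 to 2.03 over the 19 alternatives tried. Complete separation with arthritic libraries higher was seen for Cryab alone among the 10 members, and for 167 genes of the table, 1.11% of those tested. Cryab led the earlier look at this comparison, so that share does not measure how unusual its separation is. In the same comparison edgeR called 0% of all genes at an adjusted p under 0.05 (0 genes, with 915 at an unadjusted p under 0.05), while DESeq2 called 304 and limma voom 4. In CD105+ against CD200+ cells of arthritic mice Cryab was 65.6-fold lower (log2 change -6.04, SE 0.43, edgeR adjusted p = 1.72e-05), and -4.71 with spike-in library sizes (edgeR adjusted p = 0.0278). Against non-immunized CD200+ cells it was 17.9-fold lower (log2 change -4.16, SE 0.40, edgeR adjusted p = 6.8e-05). With spike-in sizes the latter was -2.75 (edgeR adjusted p = 0.143).

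Cryab (chr9:50751325-50756636, GRCm38, plus strand) shares 252 exon bases, 17.0% of its own, with Hspb2, the small heat shock protein gene on the opposite strand. That stretch is 30.2% of the exon bases of Hspb2. The sources used here do not say whether counting used strand, and reads in that stretch cannot be assigned to either gene. Over all libraries Cryab had 36514 counts and Hspb2 6347, and how many of the latter came from Cryab is not known. Hspb2 was at 30.0 ± 29.7 CPM (SD, n = 4), 77.2 ± 49.5 CPM (n = 5) and 1.73 ± 1.20 CPM (n = 5), a lower level with the same order of group means. Each group had 1 library at 0 for Hspb2, so its groups overlapped. Its log2 change in CD105+ against arthritic CD200+ cells was -5.47 (SE 1.76, edgeR adjusted p = 0.0596).

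Hspb1, which encodes Hsp27 and lies at chr5:135887919-135889563, was high in both CD200+ groups and low in CD105+ cells. Its levels were 173, 1346, 351 and 649 CPM in the non-immunized libraries and 269, 1086, 1032.5, 638 and 189 CPM in the arthritic CD200+ libraries. The CD105+ libraries held 5.77, 14.9, 0.286, 11.1 and 3.31 CPM, and the lowest of these, library 12, rests on 3 counts. The CD200+ groups overlapped fully in range, and all CD105+ libraries lay below both. The log2 change in arthritic against non-immunized CD200+ cells was 0.03 (SE 0.82) and changed sign when library 1, 3, 6 or 7 was left out (-0.25 without library 1, -0.14 without 3, -0.24 without 6 and -0.18 without 7). It was 0.72 without library 2. CD105+ cells were 90.5-fold below arthritic CD200+ cells (log2 change -6.50, SE 0.99, edgeR adjusted p = 0.00133), and the change was -4.93 with spike-in library sizes (edgeR adjusted p = 0.0285). They were 88.6-fold below non-immunized ones (log2 change -6.47, SE 1.00, edgeR adjusted p = 0.00138). The latter was -5.75 without library 2, and -4.34 with spike-in library sizes (edgeR adjusted p = 0.0565).

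Hspb8, the partner of Bag3 in clearing damaged filaments, was low everywhere and did not differ detectably. It ranged from 0 to 26.2 CPM in non-immunized, 0 to 41.0 CPM in arthritic CD200+ and 0 to 28.2 CPM in CD105+ libraries, with 1 library at 0 in each group. All 3 groups overlapped. The log2 change in CD105+ against arthritic CD200+ cells was -0.72 (SE 1.62, edgeR adjusted p = 0.838), an error too wide to show or deny even a large change.

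Bag3 links Hsp70 and small heat shock proteins to autophagy. Its levels were 82.2, 475, 106 and 207 CPM in non-immunized libraries, 95.0, 45.5, 198, 103 and 37.0 CPM in arthritic CD200+ libraries, and 0, 5.67, 2.00, 0.568 and 16.9 CPM in CD105+ libraries. Library 2 stood highest among all 14, and the CD105+ libraries lay below every CD200+ library. Bag3 fell in CD105+ against arthritic CD200+ cells (log2 change -4.23, SE 1.09, edgeR adjusted p = 0.0238). Without library 12 the change was -4.03, with the call just lost (edgeR adjusted p = 0.0539). With spike-in sizes it was -2.36 (edgeR adjusted p = 0.335), with limma voom -5.01, and without library 14 -5.49. Against non-immunized cells the log2 change was -5.42 (SE 1.17, edgeR adjusted p = 0.00937), with -4.67 without library 2 and -6.67 without library 14. With spike-in sizes it was -2.71 (edgeR adjusted p = 0.286).

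Hspa1a (chr17:34969190-34972156) and Hspa1b (chr17:34956436-34959238) encode the heat-inducible Hsp70, nearly the same protein from neighbouring genes. Of the 50-base windows in the exons of Hspa1a, 58.8% were also in Hspa1b, and 62.3% the other way, so the counting could split shared reads between them and their separate levels are uncertain. Hspa1a was at 962, 4452, 1274 and 3105 CPM in non-immunized libraries, 467, 429, 1470.4, 1247 and 424 CPM in arthritic CD200+ libraries, and 72.8, 30.8, 92.5, 19.3 and 12.4 CPM in CD105+ libraries. Hspa1b was at 2008, 5282, 2430.5 and 4084.5 CPM, then 874, 347, 2967, 1874 and 704 CPM, then 101, 71.7, 145, 9.66 and 22.6 CPM. The CD200+ groups overlapped through libraries 7 and 8 for Hspa1a and through library 7 for Hspa1b, and each CD105+ library lay below them.

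The inducible pair was lower in arthritic than non-immunized CD200+ cells by mean (Hspa1a 808 ± 510 against 2448 ± 1637 CPM, SD, n = 5 and 4), with a log2 change of -1.60 (SE 0.64) for Hspa1a and -1.35 (SE 0.71) for Hspa1b. This is a description, and the groups overlapped. Without libraries 2, 5 and 6 the changes were -0.76 and -0.62, and with spike-in sizes -0.84 and -0.66. In CD105+ against arthritic CD200+ cells the changes were -4.15 for Hspa1a (SE 0.69, edgeR adjusted p = 0.00232) and -4.27 for Hspa1b (SE 0.77, edgeR adjusted p = 0.00402). The Hspa1b value was -3.68 without library 7, and with spike-in sizes its edgeR adjusted p was 0.0551. With limma voom the changes were -5.14 and -5.50. Against non-immunized cells they were -5.75 for Hspa1a (SE 0.75, edgeR adjusted p = 0.000469) and -5.62 for Hspa1b (SE 0.83, edgeR adjusted p = 0.000989). With spike-in sizes these were -4.49 and -4.36.

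Hspa8 encodes the constitutive Hsc70, the everyday counterpart of the inducible pair. It was at 798, 3045, 1398 and 1879.5 CPM in non-immunized libraries, 2314, 1328, 968, 1808 and 1305 CPM in arthritic CD200+ libraries, and 1342, 1130.0, 1553, 1572 and 1591 CPM in CD105+ libraries. Its group means lay within the spread of each other, at 1780.1 ± 952 CPM (SD, n = 4), 1545 ± 524 CPM (n = 5) and 1438 ± 199 CPM (n = 5). The log2 change was -0.10 in CD105+ against arthritic CD200+ cells (SE 0.32, edgeR adjusted p = 0.884) and -0.31 against non-immunized ones (SE 0.34, edgeR adjusted p = 0.598). With spike-in library sizes both were 1.40, and neither was called (edgeR adjusted p = 0.342 and 0.375).

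The ratio of the inducible pair to Hspa8, per kilobase of exon, does not depend on library scaling. It was 5.61, 4.78, 3.99 and 5.73 in non-immunized libraries, 0.872, 0.869, 6.91, 2.59 and 1.30 in arthritic CD200+ libraries and 0.194, 0.137, 0.230, 0.0272 and 0.0330 in CD105+ libraries. Inducible transcripts outnumbered Hspa8 in every non-immunized library, and Hspa8 outnumbered them in every CD105+ library. The arthritic CD200+ libraries spread across both, with library 7 above all others and libraries 5 and 6, both over 80% spike-ins, below 1.

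**Figure D2:**
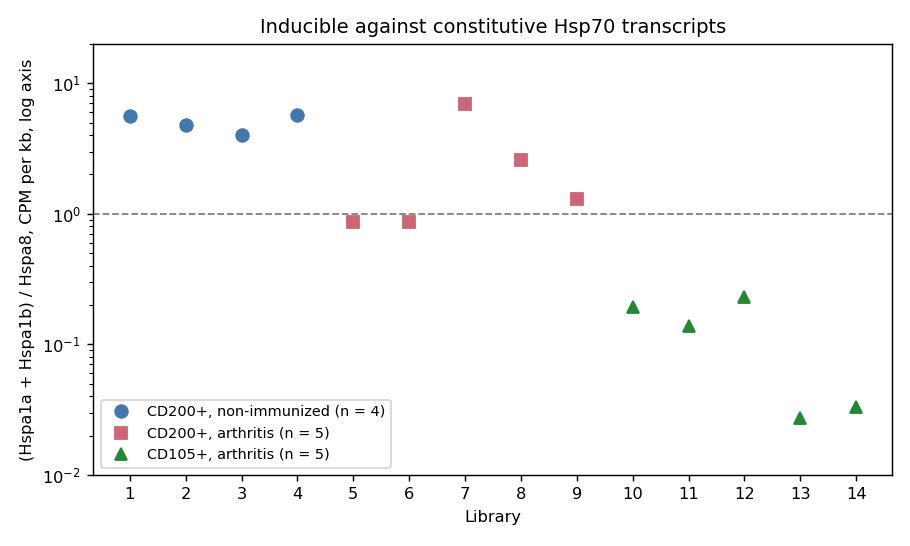
Ratio of Hspa1a plus Hspa1b to Hspa8 in each library, from CPM per kilobase of exon on a log axis, with a dashed line at a ratio of 1. Non-immunized CD200+ libraries lie at 3.99 to 5.73, arthritic CD105+ libraries at 0.0272 to 0.230, and arthritic CD200+ libraries are spread from 0.869 to 6.91.

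Dnajb1, which encodes the J-domain protein that starts the inducible Hsp70 cycle, was at 647, 3009, 357 and 1333 CPM in non-immunized libraries. It was at 343, 259, 720.5, 600.01 and 236 CPM in arthritic CD200+ libraries and at 145, 139, 173, 116 and 174 CPM in CD105+ libraries. The CD105+ libraries were close together and below every other library. Dnajb1 fell against non-immunized cells (log2 change -3.16, SE 0.54, edgeR adjusted p = 0.00256), with -2.33 without library 2, and -1.11 with spike-in sizes (edgeR adjusted p = 0.509). Against arthritic CD200+ cells its log2 change of -1.53 (SE 0.49) did not pass in the edgeR fit (adjusted p = 0.0604). Of the 20 alternatives, 5 put it past the threshold (adjusted p from 0.0148 to 0.824 over all of them). In arthritic against non-immunized CD200+ cells the log2 change was -1.63 (SE 0.51), -0.86 without library 2 and -0.59 without libraries 2, 5 and 6.

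Hsph1 encodes Hsp110, which releases ADP from Hsp70. It was at 101, 113, 130.3 and 631 CPM in non-immunized, 217, 24.9, 509, 189.9 and 93.0 CPM in arthritic CD200+, and 35.5, 77.0, 141, 103 and 84.4 CPM in CD105+ libraries. All groups overlapped, and library 4 stood alone among the non-immunized ones. The log2 change in CD105+ against arthritic CD200+ cells was -1.23 (SE 0.71, edgeR adjusted p = 0.298), and -0.51 without library 7. Against non-immunized cells it was -1.47 (SE 0.74, edgeR adjusted p = 0.209), and -0.32 without library 4. In arthritic against non-immunized CD200+ cells it was -0.24 (SE 0.74), 0.85 without library 4 and -0.90 without library 7.

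Hsp90aa1, the inducible form of Hsp90, had its highest mean in CD105+ libraries. Its levels were 388, 555, 316 and 636 CPM in non-immunized, 724, 535, 1119, 633 and 392 CPM in arthritic CD200+, and 804, 907, 888, 1258 and 816 CPM in CD105+ libraries. CD105+ libraries lay above all non-immunized ones, and library 13 was highest of the 14. The share of all genes that separated in this direction was not counted. The log2 change against non-immunized cells was 0.98 (SE 0.31), just outside the threshold (edgeR adjusted p = 0.0507), and 4 of 19 alternatives put it past (adjusted p from 0.0106 to 0.157 over all of them). Against arthritic CD200+ cells it was 0.46 (SE 0.29, edgeR adjusted p = 0.347).

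**Figure D3:**
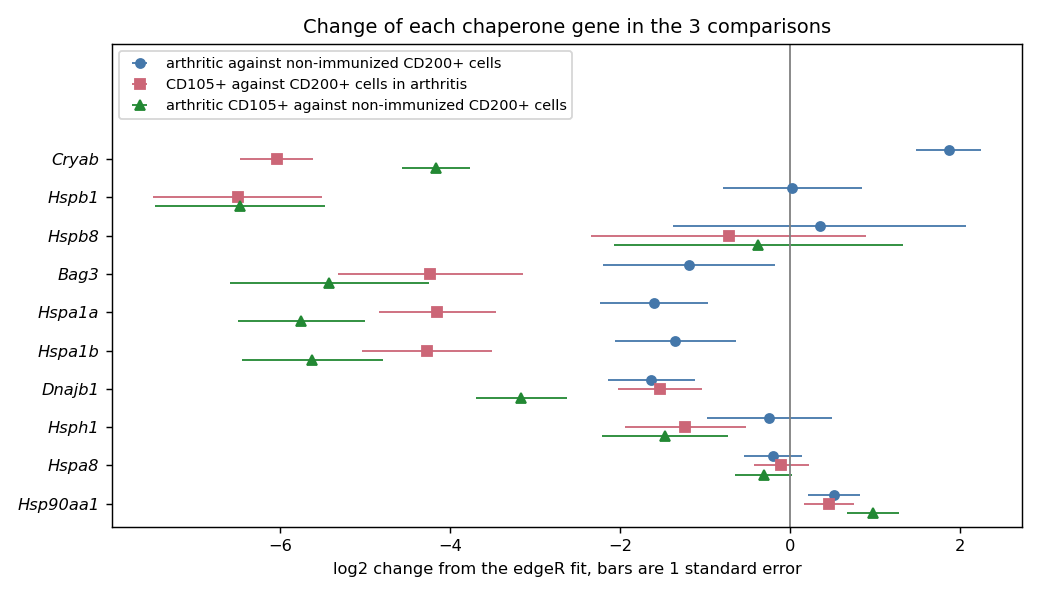
Log2 change of each gene in the 3 comparisons from the edgeR fit, with bars of 1 standard error and a line at no change. Changes of Cryab, Hspb1, Bag3, Hspa1a and Hspa1b in both comparisons with CD105+ cells lie between -4.15 and -6.50, while those of Hspa8 and Hsp90aa1 lie between -0.31 and 0.98.

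Within groups, single libraries set many members at once. Library 2 was highest of the non-immunized libraries for 7 of the 10 genes and library 1 lowest for 7. Library 7 was highest of the arthritic CD200+ libraries for 6 genes and library 9 lowest for 5. Together the 10 genes took 1.06% ± 0.606 of gene counts (SD, n = 4) in non-immunized, 0.669% ± 0.219 (n = 5) in arthritic CD200+ and 0.263% ± 0.0535 (n = 5) in CD105+ libraries.

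Compared per kilobase of exon, the order of mean levels changed between groups. In non-immunized libraries Hspa1b led at 1231 CPM per kb, then Hspa1a at 825, Hspb1 at 611, Dnajb1 at 417 and Hspa8 at 414. Hsp90aa1 followed at 120.4, apart from Hspa8 with no overlap of libraries, and Hspb8 came last at 6.87, apart from Hsph1 at 33.6. In arthritic CD200+ libraries Hspb1 led at 623 CPM per kb, then Hspa1b at 483, Hspa8 at 359, Cryab at 336 and Hspa1a at 272, and every neighbour in the order overlapped. In CD105+ libraries Hspa8 led at 334 CPM per kb, then Hsp90aa1 at 238, and the next, Dnajb1 at 46.6, was below both without overlap. Cryab stood at 91.7, 336 and 5.11 CPM per kb in the 3 groups, below Hsp90aa1 in the first, above it in the second and near the bottom in the third.

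Profiles over the 14 libraries were compared by the root mean square difference of centred log2(CPM + 1). Among the 10 members the closest pair was Hspa1a and Hspa1b, at 0.56, and the farthest was Hspb1 and Hsp90aa1, at 3.57. The closeness of Hspa1a and Hspa1b is in part built in, because the counting could split shared reads between them. Hspa8 and Hsp90aa1 lay 0.72 apart, and Cryab and Hspb1 1.53. Of 10276 genes with at least 10 CPM in a group, those nearest to Cryab were Nexn (0.45), which encodes an actin filament protein of muscle, Fitm1 (0.68) and Vgll3 (0.68). Nexn had means of 26.8, 64.2 and 0.726 CPM in the 3 groups. The nearest to Hspb1 were Des (0.93), the muscle intermediate filament desmin, Pxdc1 (1.05) and Prox1 (1.06). The nearest to Hspa8 were Eif1 (0.38), Tubb2a (0.38) and Rnh1 (0.39), and to Hsp90aa1 Polr1d (0.32), Clns1a (0.40) and Ncl (0.40).

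Of 83 other tested genes of the 9 chaperone lists, 8 (9.64%) were called in CD105+ against arthritic CD200+ cells, 6 higher and 2 lower, beside 11.3% of all genes. Against non-immunized cells 9 (10.8%) were called, 5 higher and 4 lower, beside 13.2% of all genes. These shares were near those of all genes. Without libraries 2, 5 and 6 the latter count was 23 of 84, 18 higher and 5 lower, beside 18.2% of all genes. With spike-in library sizes 0 were called in either comparison, where only 3.75% of all genes were called against arthritic CD200+ cells and 1.79% against non-immunized ones. Of the 2 other small heat shock protein genes tested, Hspb2 and Hspb6, 0 were called in CD105+ against arthritic CD200+ cells (Hspb2 was, lower, without libraries 2, 5 and 6), and Cryaa and Hspb7 had no counts in any library. Of 5 other Hsp70 and Hsp110 genes tested 0 were called, with Hspa13 at -2.18 (SE 1.08). Of 16 other J-domain genes 0 were called, with Dnajb4 at -1.18 (SE 0.39) and Dnajc9 at 3.00 (SE 0.96). Against non-immunized cells Dnajc8 rose (log2 change 1.45, edgeR adjusted p = 0.0208) and Dnajb4 fell (log2 change -1.38, edgeR adjusted p = 0.0417).

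The cytosolic chaperonin, the ring that folds actin and tubulin, had 8 of 8 subunits with positive log2 changes in CD105+ against arthritic CD200+ cells, with a median of 0.99 (0.93 with RLE factors). Of all 15015 genes tested, 7328 had positive changes in that comparison and 4.79% were called higher. Of the 8 subunits, 3 rose at the edgeR threshold: Cct8 by 0.99 (adjusted p = 0.0116), Cct5 by 1.03 (adjusted p = 0.0134) and Cct7 by 1.42 (adjusted p = 0.0486, and 0.0845 with RLE factors). Without libraries 2, 5 and 6 the subunits called were Cct5, Cct8 and Tcp1, and Cct7 was not. Of 9 mitochondrial chaperones 9 had positive changes in that comparison (8 without libraries 2, 5 and 6) and 1 rose, Grpel1, the exchange factor of mitochondrial Hsp70 (log2 change 1.19, edgeR adjusted p = 0.0469, and 0.0665 with RLE factors). Grpel1 was not called without libraries 2, 5 and 6. Of the 15 other genes of the Hsp90 list, 11 had positive changes and 0 were called, with Ahsa1, which stimulates the ATPase of Hsp90, at 1.20 (SE 0.37) and Fkbp4 at 1.68 (SE 0.54).

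Among 10 other BAG and autophagy genes, Bag1, a Hsp70 exchange factor, rose by 1.08 (edgeR adjusted p = 0.0206, and 0.0559 with RLE factors). Synpo2, the muscle partner of Bag3 in filament turnover, fell by 6.04 (edgeR adjusted p = 0.0123). With spike-in library sizes its change was -2.90 (edgeR adjusted p = 0.323), and without libraries 2, 5 and 6 it was not called. Its level in arthritic CD200+ libraries was uneven, at 19.2 to 227 CPM with a median of 28.8 CPM. Of 15 chaperones of the endoplasmic reticulum 1 rose, Dnajb11 (log2 change 1.68, edgeR adjusted p = 0.0168), and Serpinh1, the collagen chaperone, had -1.96 (SE 0.60, edgeR adjusted p = 0.0506). Against non-immunized cells the genes called beside Dnajc8 and Dnajb4 were Bag1, Cct5, Cct8 and Clpb, which rose with log2 changes of 1.45 to 3.55, and Sqstm1 (-2.04), Hsp90b1 (-1.12) and Serpinh1 (-3.02), which fell. Their edgeR adjusted p-values were 0.00194 to 0.0476. Clpb was not called with RLE factors, and Sqstm1 was not called without libraries 2, 5 and 6. Sqstm1 was uneven in non-immunized libraries, at 163 to 1378 CPM with a median of 281 CPM. Of 3 heat shock factor genes tested, Hsbp1, which encodes an inhibitor of heat shock factor 1, fell by 1.27 in CD105+ against arthritic CD200+ cells (edgeR adjusted p = 0.0185), a change of 0.08 with spike-in sizes. Hsbp1 was not called without libraries 2, 5 and 6. Hsf1 had -0.42 (SE 0.98) and Hsf2 -4.30 (SE 2.33), neither of them called.

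Immediate early genes, which respond within minutes to stimuli and also to enzymatic digestion of tissue, were also lower in CD105+ libraries. In CD105+ against arthritic CD200+ cells 8 of 21 tested fell and 0 rose, beside 6.48% and 4.79% of all genes. The median log2 change of the 21 was -3.31, with Fosb at -5.61 (edgeR adjusted p = 0.00198) and Jun at -4.06 (edgeR adjusted p = 0.00374). Against non-immunized cells 15 of 21 fell, with a median of -4.63, beside 7.63% of all genes called lower. Without libraries 2, 5 and 6 the counts were 8 and 13 of 21, beside 7.32% and 10.1% of all genes called lower. With spike-in sizes 1 of 21 fell in each comparison, with medians of -1.68 and -2.38, beside 1.04% and 0.718% of all genes called lower. In arthritic against non-immunized CD200+ cells 20 of 21 had negative changes, with a median of -1.22 and 0 called. Without libraries 2, 5 and 6 this was 13 negative and 8 positive, with a median of -0.31. Their summed level was 6947 to 89601 CPM in non-immunized, 6047 to 11892 CPM in arthritic CD200+ and 408 to 3640 CPM in CD105+ libraries. The sum of Hspa1a, Hspa1b, Dnajb1, Hsph1 and Bag3 was 3800 to 13331, 1105 to 5865 and 248 to 553 CPM. Library 2 was highest for both sums among all libraries, and library 12 highest for both among CD105+ libraries. Among arthritic CD200+ libraries the order differed, with immediate early genes highest in library 5 and the inducible sum highest in library 7. The part of this in the chaperone results was not tested.

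Markers of other cell types also differed between the groups. Summed skeletal muscle markers were 272 to 1167 CPM in non-immunized, 514 to 1352 CPM in arthritic CD200+ and 73.8 to 186 CPM in CD105+ libraries, with 11 of 18 at 0 in every CD105+ library. Of these 11, Myh1, Myh2 and Mb were at 0 in every non-immunized library too. Only 13 of the 18 passed the filter on low counts. Mylpf, a fast muscle myosin light chain, went the other way, at 4.38 ± 5.95 CPM (SD, n = 4), 3.87 ± 5.30 CPM (n = 5) and 109 ± 49.7 CPM (n = 5). Without it the sums were 267 to 1167, 514 to 1343 and 0.444 to 16.7 CPM. Pax7, which defines muscle stem cells, was at 253 ± 174 CPM (SD, n = 4), 293 ± 115 CPM (n = 5) and 0 in all 5 CD105+ libraries, where 3 counts equal 0.170 to 0.666 CPM. Summed mural cell markers were 421 to 1337, 700 to 1726 and 15.3 to 334 CPM. Osteoblast markers summed to 36228 to 121560, 23417 to 42451 and 75.0 to 526 CPM, and erythroid markers to 1169 to 10150, 4.23 to 10360 and 30793 to 255910 CPM. Stromal markers summed to 9949.5 to 24145, 3136 to 15380 and 1431 to 5089.8 CPM. Schwann cell markers summed to 224 to 365, 83.6 to 192 and 21.7 to 90.99 CPM. Both sums overlapped between the arthritic groups. Library 3 was highest of all for chondrocyte, neutrophil and B cell markers, at 20300, 6982 and 6873 CPM. Library 11 was highest for macrophage markers, at 6287.9 CPM. Chondrocyte markers were at 5975.6 CPM in library 12, beside 16.8 to 25.8 CPM in the other CD105+ libraries. Cryab and Hspb1 are known for high levels in muscle. The part of any of these cell types in the results was not tested.

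**Figure D4:**
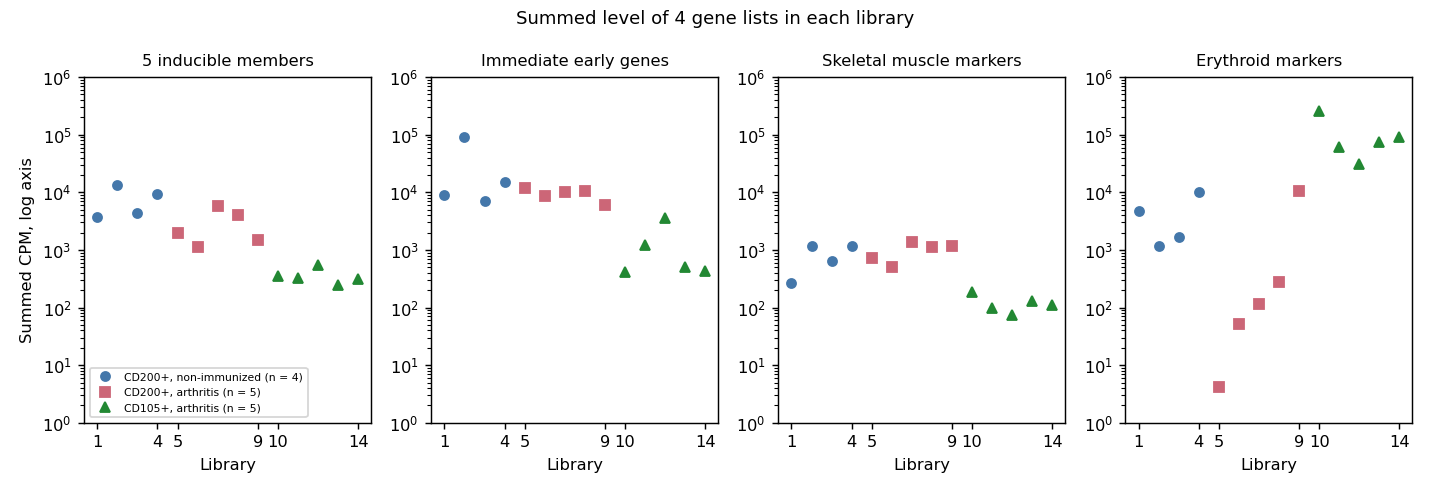
Summed CPM per library on a log axis of the 5 inducible members (Hspa1a, Hspa1b, Dnajb1, Hsph1 and Bag3), immediate early genes, skeletal muscle markers and erythroid markers. The first 3 sums are lower in every CD105+ library (10 to 14) than in any CD200+ library, and erythroid markers are highest there.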

How the data were processed

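Whole-number counts per gene were deposited by the authors. Tools named in the submitters' processing notes are HISAT2, cutadapt, edgeR and StringTie (no versions), with builds GRCm38 and mm10, and the labels' protocols name SMART-Seq v4, ERCC spike-ins and Nextera XT. Of 47821 entries, 92 are spike-ins, which were left out of library sizes. A deposited table of 14322 genes named as normalized held the same counts and served only as an alternative choice of genes. Symbols and positions came from GENCODE M21.

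Genes were filtered with filterByExpr (minimum count 10), scaled by TMM and fitted with edgeR 4.0.16 (robust quasi-likelihood, all 14 libraries, 3 groups, biological coefficient of variation 1.28). Two-sided p-values were adjusted by the Benjamini-Hochberg method over 15015 genes with a threshold of 0.05. Standard errors were taken from the log2 change and the F statistic as |change|/√F. CPM, ratios and profile distances were computed here. The tests were tested on simulated data. Alternatives were RLE factors, spike-in library sizes, no filter, a filter of 10 CPM in 4 libraries, non-robust shrinkage, only the groups compared, DESeq2 1.42.0, limma 3.58.1 voom with sample weights, Hspa1a and Hspa1b summed, and each library left out. Chosen after seeing the data were leaving out 3 libraries over 80% spike-ins and the genes of the filtered table.

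The 10 members and all gene lists were chosen with earlier results of these data known. All members are named. Of each other list, up to 4 genes with the smallest p in CD105+ against arthritic CD200+ cells could be named, and for 4 members the 3 genes nearest in profile. Cryaa, Hspb7, Mylpf and the genes called only against non-immunized cells were named after their values were seen.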

Additional observations from a re-analysis of the deposited data

Results flagged for a closer look

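Of 30 groups of libraries examined (10 genes in 3 groups), 2 held a library far from the rest of its group, and chance gives about 1 in 20. Hsph1 was highest in non-immunized CD200+ library 4, at 631 CPM beside 101 to 130.3 CPM in the other 3 libraries, and the gap took 0.944 of the group's range. Hsp90aa1 was highest in arthritic CD105+ library 13, at 1258 CPM beside 804 to 907 CPM in the other 4 libraries, and the gap took 0.773 of the range.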

How the results depend on the processing

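No paired analysis was possible because the libraries are numbered 1 to 14 and the groups share no replicate numbers. In arthritic against non-immunized CD200+ cells edgeR called 0 genes, DESeq2 304 and limma voom 4, and leaving out single libraries gave 0 to 2 genes (2 without library 3). In CD105+ against arthritic CD200+ cells the edgeR fit called 1692 genes, spike-in library sizes 570, DESeq2 3550, limma voom 4624, and single libraries left out gave 1090 (without library 14) to 1713. Against non-immunized cells the counts were 1982, 272, 4085 and 4993 in the same order, and 1308 (without library 14) to 1762. The cause of these differences was not tested.

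In the comparisons with CD105+ libraries, changes that reversed sign belonged to Hspb8 and Hspa8, neither of them called in any alternative run. Against arthritic CD200+ cells Hspb8 was 0.45 with spike-in sizes. Hspa8 was 1.40 with spike-in sizes, 0.02 without a filter, 0.15 with limma voom, 0.13 without the 3 libraries rich in spike-ins, 0.05 with the filtered genes, and -0.17 to 0.14 with single libraries left out. Against non-immunized cells Hspb8 was 1.96 with spike-in sizes, 2.40 with limma voom, 0.21 without the 3 libraries and -1.19 to 0.20 with single libraries left out. Hspa8 was 1.40, 0.17 and 0.14 in the same order, and -0.47 to 0.14. For Cryab, Hspb1 and Hspa1a against arthritic CD200+ cells, and for Hspa1a and Hspa1b against non-immunized ones, every alternative kept direction and call. In CD105+ libraries Hspb1 had 3 to 249 counts, Hspb8 0 to 472 and Bag3 0 to 230, so counting error is widest for these genes in the libraries at the low end.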
